A study of Mus musculus with 10 samples.

Results

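The 10 genes described here encode the machinery with which absorptive enterocytes package dietary fat: the apolipoproteins Apoa1, Apoa4, Apob, Apoc2 and Apoc3, the lipid transfer protein subunit Mttp, the fatty acid binding proteins Fabp1 and Fabp2, and the acyltransferases Mogat2 and Dgat1. They were chosen by function, as every probe set that the platform annotation assigns to 1 of these symbols alone, and make up 10 of the 12393 genes with a probe set of their own on the array. They were measured by 16 probe sets, of which Apoa1 has 4, Apoa4, Mttp and Fabp1 have 2 each, and the other 6 genes have 1. All 16 passed the filter on low signal, which 13579 probe sets of 8290 genes passed.

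The study compared jejunum, which lies between duodenum and ileum, of male Klf9-/- mice with that of male wild type (WT) mice at postnatal day 30, 5 arrays in each group. Klf9 encodes a transcription factor with zinc fingers, of the Kruppel-like family. Total RNA was hybridised to Affymetrix mouse 430A GeneChips, on which probe sets of short oligonucleotides report transcripts, some of them those of several genes. Each array is said to hold the RNA of 1 animal, whereas the protocol for labelling mentions pools of RNA. The labels give neither the tissue layer taken nor the feeding state, and 1 characteristic of knockout replicate 1 names both genotypes, so that its title was used.

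After a meal, fatty acids and monoacylglycerol enter the enterocyte, where the FABPs bind the fatty acids in the cytosol. Mogat2 joins a fatty acid to monoacylglycerol to make diacylglycerol, and Dgat1 makes triacylglycerol from it at the endoplasmic reticulum. The microsomal triglyceride transfer protein, of which Mttp encodes the large subunit, loads this fat onto Apob, the scaffold of the chylomicron, and Apoa1, Apoa4, Apoc2 and Apoc3 are carried on the particle into the lymph.

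The promoters of 4 genes are printed because Apoa4 with Fabp1 and Apoa1 with Fabp2 gave the 2 highest values of Pearson's r over arrays below, and because Apoa1 and Apoa4 lie beside Apoc3 in 1 gene cluster on chromosome 9, in the order Apoa1, Apoc3, Apoa4 and Apoa5. Each runs from 250 bases before to 50 bases after the annotated start in RefSeq, build GRCm38.p6, 5′ to 3′ on the plus strand of the build: chr9:46228380-46228679 for Apoa1, chr9:46240594-46240893 for Apoa4, chr6:71199629-71199928 for Fabp1 and chr3:122894822-122895121 for Fabp2. Capitals mark matches, on either strand, to the TATA box TATAAA, to GGGCGG and CACCC (letters that Sp and Kruppel-like factors are known to bind) and to CAAAGTNCA and AGNNCAAAG (parts of the repeat that HNF4 and PPAR receptors are known to bind).
Apoa1: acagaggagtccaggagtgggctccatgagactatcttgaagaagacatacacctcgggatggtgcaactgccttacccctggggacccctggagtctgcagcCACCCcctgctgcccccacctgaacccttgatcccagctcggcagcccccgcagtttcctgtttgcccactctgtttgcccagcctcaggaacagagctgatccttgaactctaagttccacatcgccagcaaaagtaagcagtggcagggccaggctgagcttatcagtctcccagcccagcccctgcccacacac
Apoa4: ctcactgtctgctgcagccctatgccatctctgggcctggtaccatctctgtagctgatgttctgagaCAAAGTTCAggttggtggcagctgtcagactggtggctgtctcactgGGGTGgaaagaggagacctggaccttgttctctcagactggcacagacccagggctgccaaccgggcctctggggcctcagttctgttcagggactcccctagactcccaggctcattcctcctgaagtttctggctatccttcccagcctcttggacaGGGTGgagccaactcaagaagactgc
Fabp1: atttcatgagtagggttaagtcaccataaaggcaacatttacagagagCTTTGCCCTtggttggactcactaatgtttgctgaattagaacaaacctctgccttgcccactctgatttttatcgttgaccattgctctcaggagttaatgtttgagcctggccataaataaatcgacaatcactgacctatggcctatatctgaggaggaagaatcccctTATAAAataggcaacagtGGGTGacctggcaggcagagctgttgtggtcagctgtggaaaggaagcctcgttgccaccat
Fabp2: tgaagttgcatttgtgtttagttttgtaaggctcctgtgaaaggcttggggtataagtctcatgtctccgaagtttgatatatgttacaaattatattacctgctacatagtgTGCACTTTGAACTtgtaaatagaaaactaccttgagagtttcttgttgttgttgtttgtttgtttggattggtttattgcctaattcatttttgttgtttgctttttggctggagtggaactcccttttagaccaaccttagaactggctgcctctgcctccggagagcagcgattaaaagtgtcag
The RefSeq table held 7 of the 10 genes. CACCC was in 6 of these 7 promoters, all but Fabp2, and in 57.5% of the 32851 promoters in the table. TATAAA was in the promoters of Fabp1 (first base at -30 from the start) and Apob (at -60), against 13.6% of all promoters, and GGGCGG in that of Mttp alone (at 24 after the start), against 35.7%. CAAAGTNCA was in those of Apoa4 (at -182) and Fabp2 (at -137), against 1.41%, and AGNNCAAAG in those of Fabp1 (at -202) and Fabp2 (at -133), against 6.55%. In Fabp2 these last motifs overlap in the 13-base run in capitals. The stricter CAAAGTCCA was in none of the 7 and in 0.475% of all promoters; the last pair of motifs was searched after that result was seen. A match is a run of letters and not a site shown to be bound.

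Signals are the deposited MAS 5.0 values, each array scaled to a 2% trimmed mean of 500, and differences are on the log2(signal + 50) scale. The arrays' median signals after this scaling lay between 170.7 and 193.8, and the number of arrays limits the precision. Klf9 checks the labels. Its brightest probe set, 1 of 7, read 944, 485, 339.6, 526 and 451 on knockout replicates 1 to 5 and 551, 1319.8, 1038, 1249 and 964 on WT replicates 1 to 5. Knockout replicate 1 thus lay near the WT arrays and WT replicate 1 near the knockout arrays, so that by this probe set both go against their labels. The other Klf9 probe sets are not shown here. The groups are called by their labels throughout, and every direction below rests on these labels. The Klf9 difference was -0.86 ± 0.25 (SE) with an adjusted p of 0.466 in limma. Another array stands apart by Fabp6, the ileal bile acid binding protein. Its signal was 10006 on WT replicate 3, against 176 to 1669 on the other 9 arrays. Slc51a, the other ileum marker that passed the filter, did not show this. It ran from 4116 on knockout replicate 5 to 6198 on knockout replicate 2. Slc10a2, below the filter, was highest on WT replicate 3, at 58.7. If arrays shared a pool, as that protocol would allow, p-values measure only a spread that may be technical.

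All 10 genes were among the brighter ones. At most 2.03% of the probe sets had a higher mean signal than a given member, and none had a higher mean than Apoa1 (1455201_x_at, 26702), while 6 were brighter than Fabp2 and 51 brighter than Fabp1. Brightness also depends on the probes, so this is no ranking of RNA amounts. Apoa1, Apob and Fabp1 are also highly expressed in liver. Of the 9 hepatocyte markers on the array, Cyp2e1 alone passed the filter of 123.5, with a mean signal of 205. The others had mean signals of 2.84 (Fgb) to 116 (Tat), with Alb at 67.6.

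No member passed the test of the group difference applied to the whole array. By limma, 0 of 10 genes had an adjusted p under 0.05, as did 0% of all probe sets tested. The count at an unadjusted p under 0.05 was 0 of 10 against a background of 7.89%, and 0 of 10 had groups without overlap against 1.55%. Of the 10, 7 were lower and 3 higher in the group labelled knockout. The median difference was -0.10, beside 0.01 for all tested genes, of which 47.5% were lower. The median size of the difference, whatever its sign, was 0.102 for the members and 0.103 for all genes. The 95% confidence intervals of the 10 genes' ratios lay between 0.568-fold and 1.52-fold, which is the range that 5 arrays a group leave. In bulk tissue, fewer enterocytes and less RNA per enterocyte cannot be told apart.

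**Figure D1:**
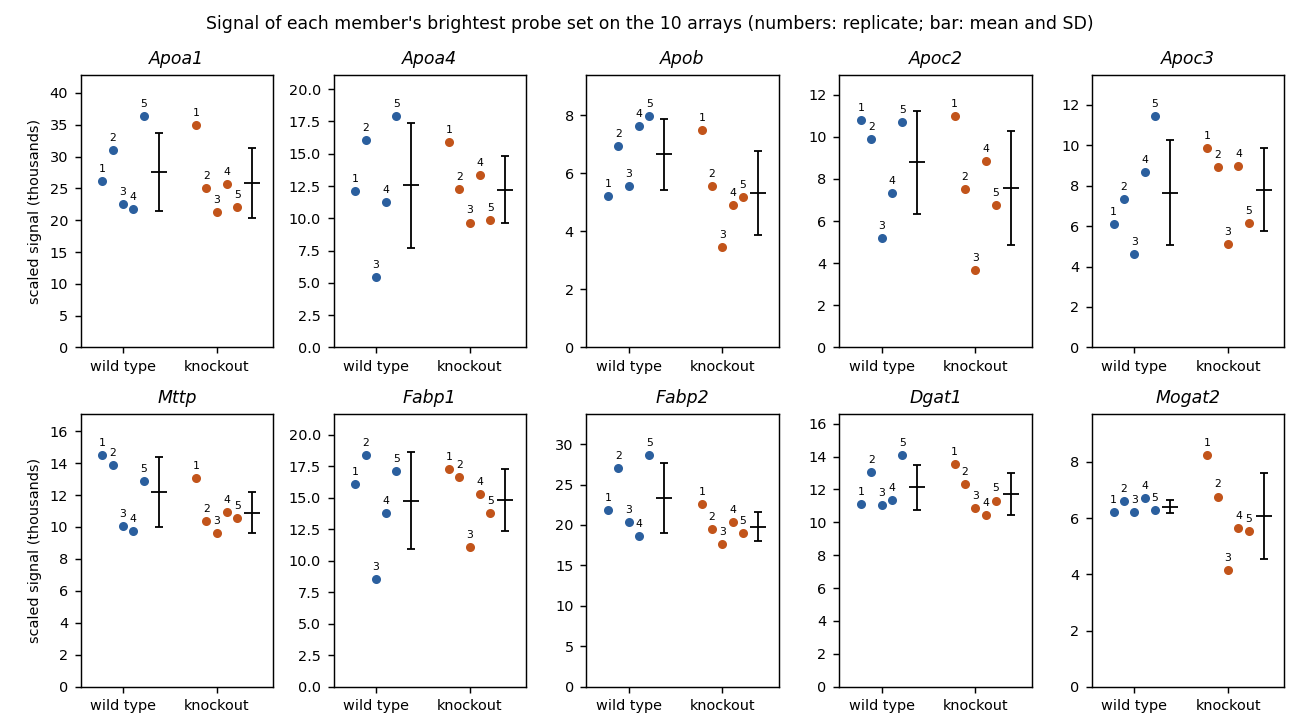
Scaled signal (linear axis from 0) of the brightest probe set of each of the 10 genes on every array, blue for arrays labelled wild type and orange for those labelled knockout, with the replicate number at each point and the mean and SD (n = 5) beside it. The groups overlap in every panel, and knockout replicate 3 is the lowest knockout array for 9 of the 10 genes.

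Apob (1455593_at), which gives the particle its backbone, had the lowest p of the 10. It read 7477, 5575, 3462, 4918 and 5173 on knockout replicates 1 to 5 and 5218, 6935, 5556, 7614 and 7963 on WT replicates 1 to 5. Of the knockout arrays, 4 of 5 were below the WT mean, and the exception was replicate 1. The means were 5321 ± 1445 and 6657 ± 1223 (SD, n = 5 each), respectively. The difference was -0.34 ± 0.18 (SE; 95% interval -0.73 to 0.05) with a limma p of 0.079 and an adjusted p of 0.673. Single arrays moved it in both directions. Without both arrays labelled replicate 1 it was -0.56 ± 0.16 (limma p of 0.00444, adjusted p of 0.327), and without knockout replicate 3 it was -0.20 ± 0.16 (adjusted p of 0.774). In the former fit 1383 of 13579 probe sets had a limma p under 0.05, against 1072 in the main fit, and 9 had an adjusted p under 0.05. Gaps of over 30 minutes between the hybridisation times recorded for the arrays set apart 3 sets of arrays, called time runs here, and within runs 1, 2 and 3 the Apob difference was 0.10, -0.65 and -0.62. Runs 1 and 2 hold 2 arrays of each group, and run 3 holds 1 of each, knockout and WT replicate 5. A difference within run 3 is thus that of 1 pair of arrays. Run 1 holds both replicates 1, and whether their labels were exchanged was not tested.

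Apoa1, the main protein of HDL as well as a chylomicron protein, read 35013, 25063, 21254, 25665 and 22145 on the knockout arrays and 26145, 31083, 22604, 21689.9 and 36356 on the WT arrays, again in the order of the replicates. The highest arrays were WT replicate 5 and knockout replicate 1, and the groups overlapped over most of their range. The difference was -0.09 ± 0.16 (SE, limma adjusted p = 0.928), and the other 3 Apoa1 probe sets gave -0.08 to -0.13. The 4 probe sets moved together, with r between 0.970 and 0.993 over the 10 arrays.

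Apoa4 (1436504_x_at), a lipid-responsive apolipoprotein of the intestine, varied more. It read 15909, 12297, 9677, 13344 and 9875 on the knockout arrays and 12141, 16098, 5442, 11241 and 17912 on the WT arrays. Its lowest and highest arrays were both WT, replicates 3 and 5, a 3.29-fold range that held all 5 knockout arrays. The difference was 0.04 ± 0.26 (SE, limma adjusted p = 0.983). The second Apoa4 probe set gave 0.13 ± 0.27, and its profile followed the first (r = 0.917).

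Apoc2 and Apoc3 act on the particle in opposite ways, Apoc2 as the activator of lipoprotein lipase and Apoc3 as an inhibitor of lipolysis and of remnant uptake. Apoc2 (1418069_at) read 10974, 7521, 3685, 8845 and 6774 on the knockout arrays and 10773, 9911, 5176, 7350.4 and 10679.7 on the WT arrays. Replicate 3 was the lowest of its group in both. The Apoc2 difference was -0.25 ± 0.26 and that of Apoc3 0.05 ± 0.23 (SE, limma adjusted p = 0.850 and 0.978). Without knockout replicate 3 that of Apoc2 was -0.013, and without WT replicate 3 it was -0.42. Apoc3 (1418278_at) ranged from 4642 on WT replicate 3 to 11431 on WT replicate 5. Within the 3 time runs it differed by 0.48, 0.09 and -0.89, the last from 1 array a group. Its direction was not shared by the runs.

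Mttp (1419399_at), the loading step, read 9599 to 13038 on the knockout arrays and 9729.9 to 14475 on the WT arrays, a difference of -0.15 ± 0.13 (SE, limma adjusted p = 0.804). Its other probe set, 1419400_at, gave -0.21 ± 0.12, with all 5 knockout arrays below the WT mean. The pair of Mttp probe sets had the same sign but only a loose common profile (r = 0.469, permutation p = 0.175), and their ratio went from 1.45 to 2.29 over the arrays.

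Fabp2 (1418438_at), the intestinal fatty acid binding protein, read 22552, 19461, 17640.0, 20361 and 19007 on the knockout arrays and 21859, 27066, 20415, 18615 and 28593 on the WT arrays. All 5 knockout arrays were below the WT mean, although 3 WT arrays lay within the knockout range. The means were 19804 ± 1824 and 23309.5 ± 4317 (SD, n = 5 each), respectively. The difference was -0.22 ± 0.13 (SE) with a limma p of 0.101 and an adjusted p of 0.687. Within the 3 time runs it was -0.21, -0.04 and -0.59, the same sign in each, but run 3 is 1 array a group.

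Fabp1 (1417556_at), the liver-type protein that the intestine also makes, read 17265, 16659.5, 11082, 15334 and 13779 on the knockout arrays and 16098, 18369, 8527, 13788 and 17127 on the WT arrays. Replicate 3 was the lowest in each group. The difference was 0.04 ± 0.19 (SE, limma adjusted p = 0.981). Its second probe set, 1448764_a_at, read 4780.3, 11952, 9179, 9157 and 10928 on the knockout arrays and 12764, 8716, 6276, 4665 and 9616 on the WT arrays. The arrays that are high on one are not those that are high on the other: over the 10 arrays r was 0.232 (rho = 0.03, permutation p = 0.542), and the ratio of the first to the second went from 1.21 on knockout replicate 3 to 3.61 on knockout replicate 1. The second gave a difference of 0.15 ± 0.27 and, with the other 9 genes, correlations of -0.47 to 0.21, where the first gave 0.48 to 0.94. Every Fabp1 correlation below is that of the brighter probe set, and which of them follows Fabp1 RNA was not tested.

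**Figure D2:**
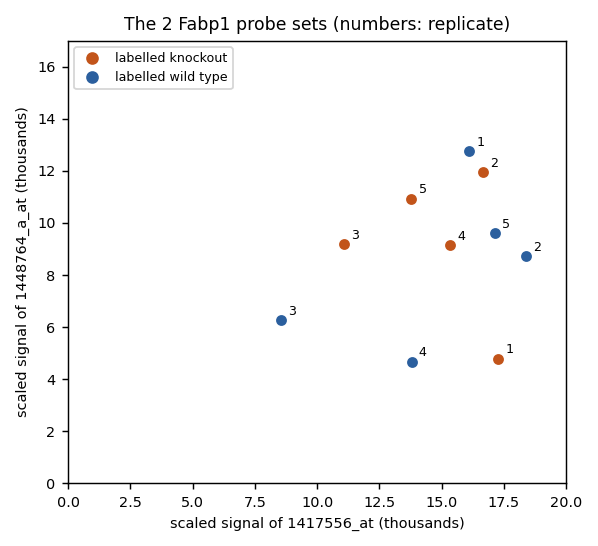
Scaled signal of the brighter Fabp1 probe set (x axis) against the other (y axis), 1 point an array, orange for labelled knockout and blue for labelled wild type, with replicate numbers. The points form no line (r = 0.232), and knockout replicate 1 and WT replicate 4 lie lowest on the y axis.

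Mogat2 (1455099_at), the first esterification step, read 8231, 6771, 4147, 5639.9 and 5555 on the knockout arrays and 6219, 6594, 6216, 6702 and 6301 on the WT arrays. The 5 WT arrays lay close together and inside the knockout range, with SDs of 227 and 1525. The difference was -0.11 ± 0.15 (SE, limma adjusted p = 0.888). Dgat1 (1418295_s_at), the last step, was the steadiest of the 10. It read 10425 to 13573 on the knockout and 11046 to 14068 on the WT arrays, a difference of -0.05 ± 0.11 (SE, limma adjusted p = 0.938). Its SD over all 10 arrays was 0.15 on the log2 scale, the only one below the median of 0.21 for all tested genes; the other 9 had SDs of 0.22 (Mttp) to 0.51 (Apoc2).

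**Figure D3:**
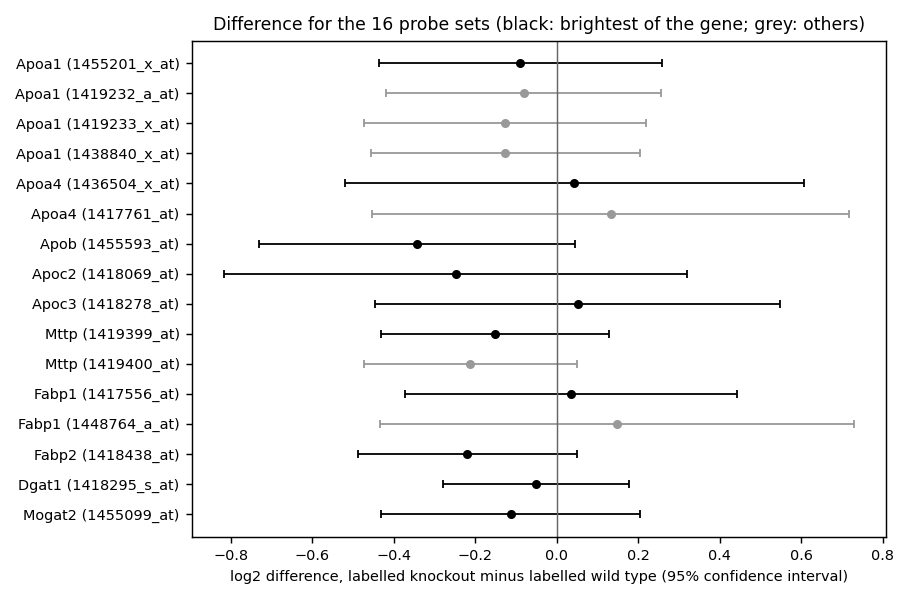
Log2 difference (labelled knockout minus labelled wild type, x axis) with its 95% confidence interval from limma for each of the 16 probe sets, black for the brightest of a gene and grey for the others. Every interval includes 0, and Apob has the lowest value, -0.34.

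The direction of the small differences depended on single arrays. Without knockout replicate 1, or without WT replicate 3, 10 of 10 genes were lower in the knockout group, with medians of -0.21 and -0.18. Without WT replicate 5 only 5 of 10 were lower (median -0.06), and without knockout replicate 3 it was 6 of 10 (median -0.02). No member had an adjusted p under 0.05 in any of these fits.

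The 10 genes varied together from array to array. All 45 pairs had a positive Pearson's r over the 10 arrays, from 0.31 (Apoc3 with Mttp) to 0.94 (Apoa4 with Fabp1), with a median of 0.677. Of the 45, 36 (80.0%) had an r of at least 0.5. That share was 9.28% among all pairs of tested genes, and 40.2% among pairs of the 244 genes at least as bright as the dimmest member, so much of it is shared by other bright genes. The mean log2 signal of the 10 genes was lowest on knockout replicate 3 (12.98) and WT replicate 3 (13.06) and highest on WT replicate 5 (13.81) and knockout replicate 1 (13.76). Leaving out each array in turn gave medians of 0.614 to 0.739. By permutation, 15 of the 45 pairs had a Benjamini-Hochberg adjusted p under 0.05 for r and 18 for rho. How many pairs of equally bright genes would reach this was not counted. Their median r was 0.403.

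Apoa4 and Fabp1 had the highest r of the 45 pairs, with r = 0.941 and rho = 0.927 (permutation p = 0.00011 and 0.00042, adjusted over 45 pairs 0.00495 and 0.00945). Without WT replicates 3 and 5, the arrays farthest from the Apoa4 median, r was 0.874, and with values centred on each time run it was 0.941. Apoa1 and Fabp2 had the second highest r and the highest rho, with r = 0.881 and rho = 0.952 (adjusted permutation p = 0.02415 and 0.0054; r = 0.928 without the 2 farthest arrays and 0.833 centred on time runs). Apob went with Mogat2 (r = 0.837, rho = 0.794, adjusted permutation p = 0.02415 and 0.0308; 0.781 and 0.893), and Apoa4 with its neighbour in the gene cluster Apoc3 (r = 0.821, rho = 0.83, adjusted permutation p = 0.02415 and 0.0237; 0.647 and 0.813). Apoa1 with Apoc3, also neighbours, gave r = 0.68.

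Part of this pattern changed with the scaling of the arrays. The 99th percentile of signal, set against the members after the data were seen, ran from 8230.0 on knockout replicate 3 to 10098 on WT replicate 5. Its r with the 10 genes lay between 0.52 and 0.90. The adjusted permutation p for r was under 0.05 for 5 of them, Apoa1, Apoc2, Mttp, Fabp2 and Dgat1. For rho the genes were partly others, Apoa1, Apoa4, Fabp1, Fabp2 and Dgat1. How many other genes, equally bright or not, reach this was not counted. Quantile normalization gives every array the same distribution and so removes differences in this percentile by construction. After it the median r was 0.156, 11 pairs had an r of at least 0.5 and 14 were below 0, while 11.6% of pairs of equally bright genes had an r of at least 0.5. The pairs of Apoa4 and Fabp1 (0.88), Apob and Mogat2 (0.81), and Apoa4 and Apoc3 (0.77) were among the 11, and Apoa1 with Fabp2 (0.25) was not. Under that scaling the SD of Apoa1, the brightest probe set by mean, was 0.019 on the log2 scale, against 0.29 before, so little of its variation is left.

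**Figure D4:**
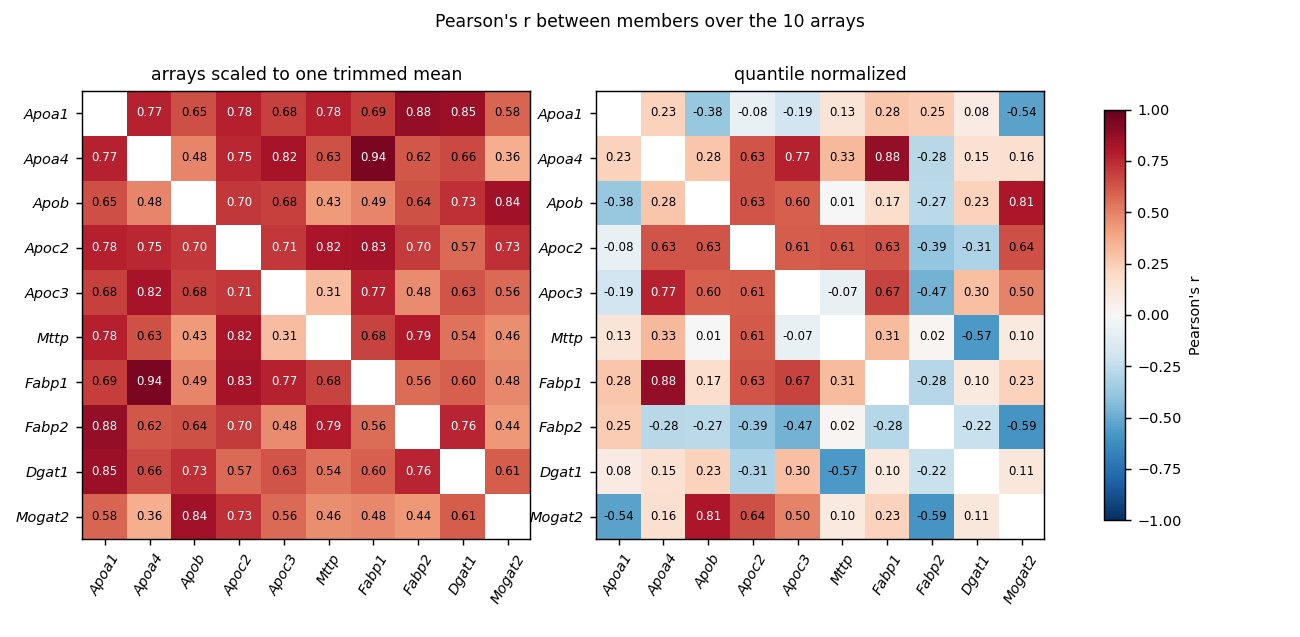
Pearson's r over the 10 arrays for each pair of genes (brightest probe sets), after scaling to 1 trimmed mean (left) and after quantile normalization (right), on a colour scale from -1 to 1. On the left all 45 pairs are positive (0.31 to 0.94). On the right they range from -0.59 to 0.88, and the 11 values of at least 0.5 lie among Apoa4, Fabp1, Apoc2 and Apoc3, among Apob, Apoc2, Apoc3 and Mogat2, and between Apoc2 and Mttp.

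The genes followed the markers of the villus, whose enterocytes make them, and ran against those of dividing crypt cells. The 7 measured villus enterocyte markers, led in signal by the aminopeptidase Anpep and the keratin Krt20, were all lower on the arrays labelled knockout (median difference -0.14, 0 with an unadjusted p under 0.05; summed signal 56028 to 77576 on the knockout and 59010.6 to 92352 on the WT arrays). Of the 8 crypt proliferation markers 7 were higher (median 0.08; summed signal 8341 to 13661 and 8852 to 12141). The r of the members with the villus mean lay between 0.61 and 0.90, all 10 positive, and with the crypt mean between -0.92 and -0.51, all 10 negative. These signs held under cyclic loess (villus 0.25 to 0.85, crypt -0.92 to -0.11) but not for 3 genes after quantile normalization. There the villus r was 0.015 for Apoa1, -0.27 for Fabp2 and -0.0022 for Dgat1 and the crypt r 0.28, 0.57 and 0.11, while the other 7 genes lay between 0.39 and 0.84 and between -0.93 and -0.38. Permutation p was adjusted over the 80 relations of 10 genes with 8 marker lists. For r it was under 0.05 with the villus markers for Apoc2, Apoa4, Fabp1, Apoa1 and Apoc3, and with the crypt markers for Apoc2 and Apoc3. For rho Apoc3 reached this with neither list (adjusted permutation p = 0.213 for villus and 0.134 for crypt). Fabp2 did so for rho with the villus markers (0.0409). How many of all tested genes reach such values with these lists was not counted. Pairs of the 244 genes at least as bright as the dimmest member had a median r of 0.403. That value is between single genes and not with these lists. Whether the counts set the members apart from other bright genes was therefore not tested.

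By Pearson's r, Apoc2 had the highest value with each list. By rho Apoa4 and Fabp1 (0.939 each) and Apoa1 (0.927) were above it for the villus list. With the villus markers r was 0.896 and rho 0.891 (adjusted permutation p = 0.006 and 0.025), and 0.794 without knockout and WT replicates 3. With the crypt markers r was -0.915 and rho -0.879 (adjusted permutation p = 0.0118 and 0.0269), and -0.68 without the same arrays. Centred on time runs the values were 0.834 and -0.92, and after quantile normalization 0.825 and -0.93; in both settings Apoc3 had a higher villus r (0.861 and 0.841). With the villus mean as a covariate 5 of 10 members were lower in the knockout group (median difference -0.0069), and less the villus mean the median r of the 45 pairs was 0.047. Both were added after the data were seen. Taking away a mean that goes with every member can lower their r whatever its source, array scaling included. The part of tissue composition in the group difference was not tested. In the covariate fit Apoa4 had the lowest limma p of the members (0.0317, lowest adjusted p 0.434), and 1414 of 13579 probe sets had a p under 0.05.

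**Figure D5:**
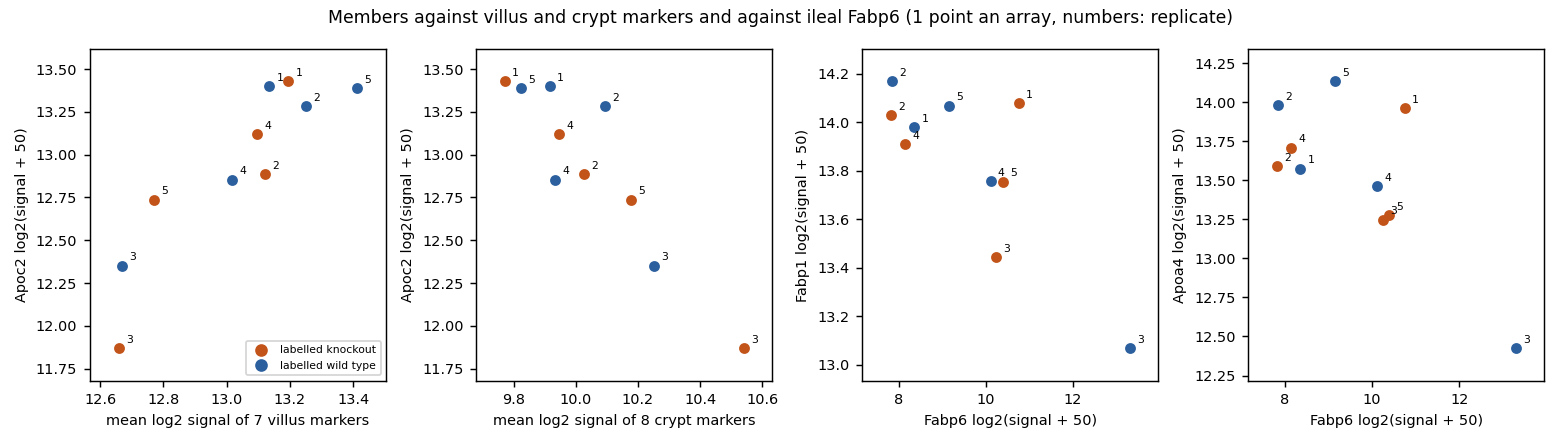
Apoc2 (log2 of signal + 50) against the mean log2 signal of the 7 villus and of the 8 crypt markers, and Fabp1 and Apoa4 against Fabp6, 1 point an array with its replicate number, orange for labelled knockout and blue for labelled wild type. Apoc2 rises with the villus mean (r = 0.896) and falls with the crypt mean (r = -0.915), with both replicates 3 at the low end, and in the Fabp6 panels WT replicate 3 lies alone at the right.

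Markers of other cells that a piece of gut wall can hold were compared as well. Smooth muscle markers were higher for 10 of 10 (median 0.31, 4 with an unadjusted p under 0.05; Acta2 0.12 ± 0.14, Tpm2 0.49 ± 0.18) and fat cell markers for 5 of 5 (median 0.62, 3 unadjusted; Car3 1.31 ± 0.59, Lpl 0.15 ± 0.24), while B and plasma cell markers were lower for 6 of 6 (median -0.31, 2 unadjusted; Jchain -0.93 ± 0.50, Ighm -0.47 ± 0.17). None passed with adjusted p in limma. The r of the members was -0.48 to 0.03 with the muscle, -0.15 to 0.35 with the fat and -0.0013 to 0.73 with the B cell markers, and no adjusted permutation p was under 0.05. Of the 9 hepatocyte markers on the array, 1 (Cyp2e1) passed the filter.

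Fabp6 went against Fabp1 and Apoa4, a comparison added after the data were seen. The Fabp1 relation had r = -0.81 (permutation p = 0.00648, adjusted over 30 relations 0.0389) and rho = -0.53, and the Apoa4 relation r = -0.73 (adjusted permutation p = 0.0732) and rho = -0.53. Both rest largely on WT replicate 3, where Fabp1 (8527) and Apoa4 (5442) were at their lowest. Without that array and knockout replicate 2, r was -0.50 and -0.39. The r of Apob and of Mogat2 with Fabp6 was -0.04 each. With the mean of the 2 ileum markers that passed the filter, Fabp6 and Slc51a, 0 of 10 genes had an adjusted permutation p under 0.05. The r of Fabp1 with that mean was -0.78 (adjusted permutation p over 80 relations 0.0963). Without WT replicate 3 the differences of Apoa4 and Fabp1 turned to -0.23 and -0.15.

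Among the other genes of fat absorption, none passed with adjusted p in limma, and 1 of 46 had an unadjusted p under 0.05. That was Plin2, which coats cytosolic lipid droplets. It read 2292, 1811, 1944, 1829 and 1679.8 on the knockout arrays and 1447, 1589.6, 1504, 1372 and 1487 on the WT arrays, so that the groups did not overlap. The difference was 0.35 ± 0.10 (SE) with a limma p of 0.00386 and an adjusted p of 0.466. It was 0.41, 0.38 and 0.17 within the 3 time runs, the last from 1 array a group. Groups do not overlap in 1.55% of all probe sets. Of the 7 lipid droplet and lipolysis genes 2 were higher and 5 lower (median -0.03), with the triglyceride lipase Pnpla2 at 0.18 ± 0.13.

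Of 8 other genes of glycerolipid synthesis, 5 were higher and 3 lower (median 0.11). Lpin2, a phosphatidate phosphatase, differed by 0.24 ± 0.11, Dgat2, the second triacylglycerol synthase, by 0.38 ± 0.21, and Gpat4, which starts the glycerol phosphate route, by -0.20 ± 0.13. The 6 genes of fatty acid uptake and activation were 4 higher and 2 lower (median 0.03), with the acyl-CoA synthetases Slc27a2 at 0.19 ± 0.13 and Slc27a4 at 0.10 ± 0.10. Of 12 genes of chylomicron assembly and vesicle exit, 3 were higher and 9 lower (median -0.03), with the cargo receptor Surf4 at 0.16 ± 0.09 and the vesicle SNARE Vamp7 at -0.25 ± 0.15. The 4 measured other apolipoproteins and Apob editing genes were 3 higher and 1 lower (median 0.04; Apoe 0.24 ± 0.20), and the 9 transcription factors of lipid genes 7 higher and 2 lower (median 0.07; Nr1h3 0.18 ± 0.14, Ppara 0.26 ± 0.22). Limma adjusted p for the genes named here lay between 0.634 and 0.839.

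Over all tested genes outside the 10, the profile most like their mean over the arrays was that of Tm6sf2 (r = 0.961), a membrane protein known from human and mouse studies to act in lipidation of Apob particles. It was followed by Itm2b (0.958), Stk25 (0.957), Slc9a3r1 (0.957), Tff3 (0.951), Tmed4 (0.946), Dcaf11 (0.944), Scnm1 (0.943), Mdh1 (0.938) and Hadh (0.938). These were picked as the highest of 8280 genes, so the values describe likeness and carry no test. After quantile normalization the r of Tm6sf2 was 0.872 and that of the other 9 lay between 0.620 and 0.881. Tm6sf2 was read at 3962 to 7592 over the arrays and differed by -0.13 ± 0.16 between the groups (SE, limma adjusted p = 0.874).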

How the data were processed

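RNA of 10 jejunum samples was hybridised to 1-colour Affymetrix 430A arrays. The authors quantified the images with MAS 5.0, per the series' design text, and deposited 1 signal intensity per probe set and array; no further step is named in the labels or headers, and all 10 deposited value columns were used. The signal intensities as deposited had a 2% trimmed mean close to 500 on every array and were scaled to 500.0. Of 22690 probe sets, 64 controls were left out, as were those with a mean signal over all arrays below the 40th percentile (123.5). In the platform annotation 20380 probe sets had 1 gene symbol, 691 several and 1555 none; symbols were updated through gene IDs. The brightest probe set stood for a gene.

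The groups were compared with limma 3.58.1 in R 4.3.3 (lmFit, eBayes with a mean-variance trend) on log2(signal + 50), two-sided, with Benjamini-Hochberg adjustment over 13579 probe sets. The fit was tested on simulated data. Correlations over 10 arrays have two-sided permutation p-values from 100000 resamples (scipy 1.17.1), adjusted within each family of relations. Time runs are sets of arrays inferred from gaps of over 30 minutes between recorded hybridisation times. The headers name no such batch. Of the 4 fluidics modules recorded, modules 1 and 2 held knockout arrays alone and module 3 WT arrays alone. For these arrays genotype and module cannot be told apart. Named are all members and their probe sets, Klf9, up to 3 genes of lowest p in each pathway list, up to 2 of highest signal in each marker list and the 10 genes of most similar profile. Members, lists and alternatives were chosen with earlier results of these data known. Replicate numbers are shared by the groups and follow the time runs, with 1 and 2 in run 1, 3 and 4 in run 2 and 5 in run 3. The correlation of same-numbered arrays' deviations was -0.12 to 0.28. The numbers were not taken as pairs in the main fit, and a block by replicate number was an alternative. The alternatives were other offsets, filters, normalizations, variance settings, weights and blocks, and arrays left out.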

Additional observations from a re-analysis of the deposited data

How the results depend on the processing

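Of 266 results of the 10 genes under alternatives, 242 kept their sign and their side of the threshold and 23 turned sign; 0 genes were called in any. Over all probe sets 0 were called, 3 with array weights, 9 without both replicates 1, and 0 to 5 leaving out each array. With the replicate block 0 were called, and 7 members were lower as before (lowest limma p 0.0626, Apob). That block lowered the SE of Apoc2 from 0.26 to 0.14 and of Fabp1 from 0.19 to 0.11. For Dgat1 it changed little, from 0.106 to 0.104. Differences near 0 turned: with array weights and without both replicates 1 Apoa4 was at -0.039 and -0.04 and Apoc3 at -0.0100 and -0.11. Of the fluidics modules, module 4 alone holds both groups. Blocking on the module thus compares only knockout replicate 5 with WT replicates 2 and 4. It put Apoa4, Apoc3 and Fabp1 at -0.44, -0.38 and -0.21. There Slc27a2, Dgat2, Pnpla2, Vamp7, Apoe and Ppara, which kept their sign otherwise, were at -0.23, -0.46, -0.18, 0.30, -0.081 and -0.67. Quantile normalization put Apoa1 at 0 and Dgat1 at 0.022, and the villus covariate at 0.035 and 0.0031. Leaving out each array, or both replicates 1, gave -0.22 to 0.017 for Apoa1, -0.23 to 0.20 for Apoa4, -0.11 to 0.21 for Apoc3, -0.13 to 0.0044 for Dgat1, -0.15 to 0.14 for Fabp1 and -0.24 to 0.014 for Mogat2, and -0.56 to -0.20 for Apob, -0.42 to -0.013 for Apoc2, -0.30 to -0.14 for Fabp2 and -0.23 to -0.085 for Mttp. The median r of the 45 pairs was 0.156 with quantile normalization, 0.418 with cyclic loess and 0.047 less the villus mean. The median r with the villus markers, 0.813, was 0.512 and 0.633 under those normalizations, and that with the crypt markers, -0.69, was -0.54 and -0.59. Plin2 stayed between 0.18 and 0.40. Causes were not tested.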

Other observations

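By r but not by rho, the Klf9 signal had an adjusted permutation p under 0.05 with 1 of the 10 members over the arrays. Its r with Apob was 0.846 and rho 0.721 (permutation p = 0.00233 and 0.0236, adjusted over 30 relations 0.0233 and 0.0883), 0.789 without knockout replicate 3 and WT replicate 2, 0.808 with values centred on the labelled groups and 0.915 centred on time runs. It was 0.869 after quantile normalization. For Mogat2, which tracks Apob, r was 0.662 (adjusted permutation p = 0.0732) and rho 0.515. The r of the other 8 genes with Klf9 lay between 0.14 (Fabp1) and 0.57 (Fabp2), with adjusted permutation p of 0.19 or more. These relations were computed after the data were seen, and the 2 arrays whose Klf9 signal goes against their labels are among the 10. How many of all tested genes reach such an r with Klf9 was not counted.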
